A study of Rattus norvegicus with 24 samples.

Results

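Features with the length or the position of replication-dependent histone genes were followed in total RNA of the rat nucleus accumbens (NAc) and ventral tegmental area (VTA) after fentanyl or saline. The deposited tables carry no gene names, so no feature was identified as a histone gene by name, and the features were chosen by structure: a single exon, and either a start between 43500000 and 45000000 on chromosome 17 with a length of 300 to 700 nt, or a length on chromosomes 1 to 20 of exactly 312, 381, 393 or 411 nt. Those lengths are the coding lengths of H4, H2B, H2A and H3. Of 32552 deposited features, 90 met this description and 49 of them had at least 10 counts summed over the 24 libraries. The other 41 were 21 features with 0 counts and 20 with 1 to 9 counts. The set was picked because several of its features fell with fentanyl in the NAc, so the NAc fentanyl values below are a description and no test of the set.

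Replication-dependent histone genes encode the core histones that package newly made DNA, and a dividing cell transcribes them in S phase. Their mRNAs have no introns and no poly(A) tail. They end in a stem-loop bound by the stem-loop-binding protein, so libraries made from total RNA after removal of ribosomal RNA can hold them where poly(A)-selected libraries hold few. In mammals the genes lie in clusters, each core histone is made from many near-identical copies, and H2A and H2B genes often sit head to head. Most cells of the adult brain do not divide; progenitors and glial precursors are among those that can.

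The animals were Sprague Dawley rats of both sexes treated with saline or with the opioid agonist fentanyl, in a study of opioid withdrawal and of choice between fentanyl and food. Tissue was taken at the time of the last choice session, in place of it. Bilateral punches, with an inner diameter of 2.16 mm in the NAc and 1.19 mm in the VTA, held tissue of many cell types. The NAc groups held 4 fentanyl males, 4 fentanyl females, 3 saline males and 3 saline females. The VTA groups held 3 fentanyl males, 3 fentanyl females, 2 saline males and 2 saline females. The 24 libraries came from 14 rats, and 10 rats gave both regions. The labels state neither the fentanyl dose nor the age. Each of the 4 groups of sex and treatment has its own code letters: N and L for fentanyl males and females, SM and SF for saline males and females. Neither sex nor treatment can therefore be told apart from code series.

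Total counts ran from 3.46 M to 5.01 M per NAc library and from 4.49 M to 6.3 M per VTA library. The 49 features took 352 to 1194 counts per library, and 34 to 47 of them had a count in a given library. Mitochondrial features took 29.2% to 36.7% of counts in NAc fentanyl females and 22.1% to 26.1% in NAc saline females, with 26.9% to 28.4% and 24.9% to 31.3% in the fentanyl and saline males. In the VTA the share was 21.3% to 26.9% in fentanyl libraries and 17.6% to 21.0% in saline libraries. The labelled tissues could not be checked against cell type markers, since no deposited ID could be paired with a name.

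The 49 features fell into 2 runs on chromosome 17, 1 run on chromosome 2 and scattered positions. The first chromosome 17 run held 16 features over 205 kb, from 43616247 to 43821536, with 7 on the plus and 9 on the minus strand. The second held 15 features over 322 kb, from 44519860 to 44841382. The chromosome 2 run held 6 features over 58 kb, from 198359754 to 198418029, and 12 features lay elsewhere on 8 chromosomes. All coordinates are those of the deposited tables, whose genome build is not given in the sources used here. No annotation used here named any feature, so each is called below by its length and start.

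By length, 12 features had the H4 length (312 nt), 13 the H3 length (411 nt), 11 the H2A length (393 nt) and 8 the H2B length (381 nt). The other 5 features, of 382 to 669 nt, lay in the chromosome 17 window and were given no histone class; they held 16.6% of the counts of the set. Single-exon features crowded at these exact lengths: 24 had 411 nt, against a median of 5.0 at the 6 nearest lengths that are multiples of 3, and 23 had 393 nt, against 7.0. For 312 nt the numbers were 23 against 13.5, and for 381 nt 14 against 8.5. A length of 312 nt thus says less than one of 411 nt. Away from the 2 runs on chromosome 17 and the run on chromosome 2, 12 single-exon features had 312 nt, beside that median of 13.5 over all positions, and 7 of them are in the set. In the chromosome 17 window, where the rule did not fix exact lengths, 30 of 31 lengths are multiples of 3. Whether reads of the untranslated ends, where the stem-loop lies, were counted is not given in the sources used here.

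Head-to-head neighbours of 381 and 393 nt were found at 4 places on chromosome 17, with 293 to 312 nt between them, and at another place a 381-nt feature faced a 387-nt feature across 323 nt. In the pair at 43627237 and 43627930, the 393-nt feature had 30 counts and the 381-nt feature 184 counts over all libraries. In the pair at 44747796 and 44748482 the order was the reverse, with 130 counts for the 393-nt and 40 for the 381-nt feature. The pair at 44737950 and 44738643 had 43 counts for the 381-nt feature and 9 for the 393-nt feature, which is below the limit of the rule. In the pair at 44519860 and 44520537 the counts were few and near each other, 11 for the 381-nt and 13 for the 393-nt feature. Facing neighbours were therefore not counted at equal levels in every pair. In the pairs that start at 43627237 and 44747796 the 393-nt feature overlaps an exon of another deposited feature and the 381-nt feature does not. The part of this overlap in the unequal counts was not tested.

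Levels differed by far more between features than between groups. The highest feature was the 312-nt ENSRNOG00000051891 (chromosome 17, 43770250 to 43770561, minus strand), with a mean of 129 CPM per kb over the 24 libraries, CPM being read counts brought to one library size. It alone held 23.9% of all counts of the set. The next levels were 41.3 CPM per kb for the H4-length feature at 170763605 on chromosome 4, and 28.4 CPM per kb for the 312-nt ENSRNOG00000058444 (chromosome 17, 44744591 to 44744902, minus strand). The H2A-length feature at 93376277 on chromosome 7 reached 27.2 CPM per kb, and a 639-nt feature at 43639749 reached 26.6.

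H4-length and H3-length features had median levels of 5.22 and 5.10 CPM per kb. H2A-length and H2B-length features had lower medians, of 1.33 and 0.987 CPM per kb. In the set 8 features overlap an exon of another deposited feature, most of them of H2A length and none of H2B or H3 length. The part of this overlap in the low H2A-length median was not tested. The median over the 20490 features with at least 10 counts was 4.08 CPM per kb. Within a length the range was wide: the 12 H4-length features ran from 0.890 to 129 and the 8 H2B-length features from 0.236 to 5.27 CPM per kb. The 2 chromosome 17 runs held 60.5% and 15.4% of the counts of the set. Copies of one histone are near-identical and the handling of reads with several alignments is not given, so the split of counts among copies is uncertain, whereas a sum over a length is less exposed to it.

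**Figure D1:**
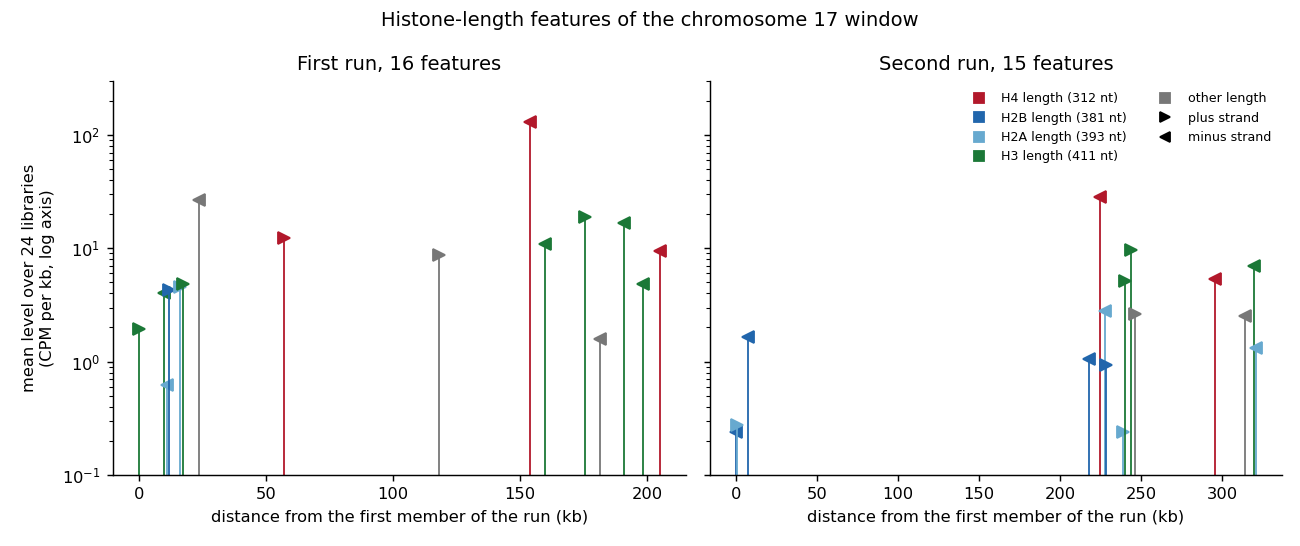
Mean level over the 24 libraries (CPM per kb, log axis) of each feature of the 2 chromosome 17 runs, by distance from the first feature of its run in kb; colour gives the coding length and the triangle points along the strand. One H4-length feature of the first run stands at 129 CPM per kb, and the H2A-length and H2B-length features lie low.

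At the lower limit of the rule, the features just inside had 11, 11 and 13 counts, and those just outside had 9 and 9. Of the 49 features, 22 passed the filter on low counts in no fit, and these had 11 to 105 counts in all. The 27 that passed in a fit had 120 to 4484. The filter kept 20 features in the NAc, 26 in the VTA and 27 in the comparison of regions. A feature can pass it through its highest group alone, so counts over the features that passed do not speak for all 49.

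Fentanyl against saline in the VTA was a comparison that the choice of the set did not use, although rats that gave the VTA tissue also gave NAc tissue. In the VTA no feature of the set passed the test. All 10 H3-length features in the fit had a negative log2 fold change in the mean of the sexes, with a median of -0.56, beside a median of 0.00 over all 14400 genes tested. In females 8 of these 10 were negative, and in males also 8 of 10. In the mean of the sexes, H4-length features were negative in 5 of 7, H2A-length in 2 of 4 and H2B-length in 0 of 2. Over the 26 features the median was -0.23 and 18 were negative.

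In edgeR's quasi-likelihood test, 0 of 26 features had an adjusted p under 0.05 in the mean of the sexes, and 0.0% of all genes did. The lowest adjusted p was 0.444. At an unadjusted p under 0.05 there were 5 features, all lower with fentanyl, or 19.2% of the 26 beside 8.83% of all genes. In females there were 6 such features, 5 lower and 1 higher, or 23.1% beside 7.62% of all genes. In males there was 1, or 3.85% beside 4.5% of all genes. In each sex 0 had an adjusted p under 0.05, as did 0.0% of all genes. DESeq2 called 0 features in all 3 comparisons, and 39, 37 and 7 of all genes in the mean of the sexes, females and males. Without a filter on low counts, edgeR called 1 feature higher and 1 lower in the mean of the sexes and 1 lower in females. It then called 499 of all genes in the mean of the sexes and 418 in females.

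Summed over the 13 H3-length features, the VTA level was 22.0 to 28.8 CPM in the 3 fentanyl females and 38.7 to 40.1 CPM in the 2 saline females. In males it was 28.0 to 32.9 CPM with fentanyl and 35.2 to 39.7 CPM with saline. The treatments did not overlap in either sex, with group means of 24.8 ± 3.59 (SD, n = 3) against 39.4 ± 0.992 (SD, n = 2) in females and 29.9 ± 2.59 (SD, n = 3) against 37.4 ± 3.17 (SD, n = 2) in males. With so few libraries a gap within 1 sex is common among single genes: CPM of the treatments did not overlap for 22.5% of all genes in VTA females and for 24.2% in VTA males. With the sexes pooled, the sums did not overlap either, and the share of all genes was 2.19%, with 1.36% lower with fentanyl. These are shares of single genes, and no share was computed for sums of several features. The sum was not tested, because the length was singled out after its values were seen. The mitochondrial share was higher in the fentanyl libraries of the VTA without overlap, and its part in this gap was not tested.

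Single H3-length features of the VTA show how few counts stand behind each. The feature at 44760056 on chromosome 17 had 0.904, 0.583 and 1.64 CPM in fentanyl females and 3.65 and 4.61 CPM in saline females. In males it had 3.21, 1.36 and 2.15 CPM with fentanyl and 3.95 and 2.45 CPM with saline. Females were apart and males overlapped. Its log2 fold change in the mean of the sexes was -1.21 ± 0.38 (SE), with an edgeR adjusted p of 0.444. It lies within the span of another deposited gene on chromosome 17, so reads of that gene may be among its counts.

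The H3-length feature at 43807130 had 2.94, 1.75 and 3.76 CPM in VTA fentanyl females against 6.82 and 6.99 CPM in saline females. In VTA males the values were 5.61, 5.12 and 8.79 CPM with fentanyl and 6.48 and 5.89 CPM with saline, and these overlap. The log2 fold change was -1.25 ± 0.37 (SE) in females, with an edgeR adjusted p of 0.547. The H3-length feature at 43776050 had 0, 1.75 and 2.13 CPM in VTA fentanyl females, below the 4.60 and 5.46 CPM of saline females. Its log2 fold change there was -1.85 ± 0.69 (SE), with an edgeR adjusted p of 0.633.

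Among H4-length features, ENSRNOG00000051891 had 23.3, 27.2 and 25.0 CPM in VTA fentanyl females and 33.9 and 37.7 CPM in saline females. Males had 35.6, 39.5 and 23.8 CPM with fentanyl and 29.9 and 38.1 CPM with saline. Females were apart and males overlapped, and in females the log2 fold change of -0.48 ± 0.21 (SE) had an edgeR adjusted p of 0.650. The feature at 170763605 on chromosome 4 had 15.1, 11.5 and 15.9 CPM in VTA fentanyl females, overlapping the 11.9 and 12.5 CPM of saline females.

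The low H4-length feature at 101138549 on chromosome 7 had 1.12, 0.603 and 1.17 CPM in VTA fentanyl males and 3.79 and 3.44 CPM in saline males. Females had 1.81, 0 and 1.31 CPM with fentanyl against 2.54 and 2.05 CPM with saline. The treatments did not overlap in either sex. Its log2 fold change in the mean of the sexes was -1.51 ± 0.54 (SE), with an edgeR adjusted p of 0.469.

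**Figure D2:**
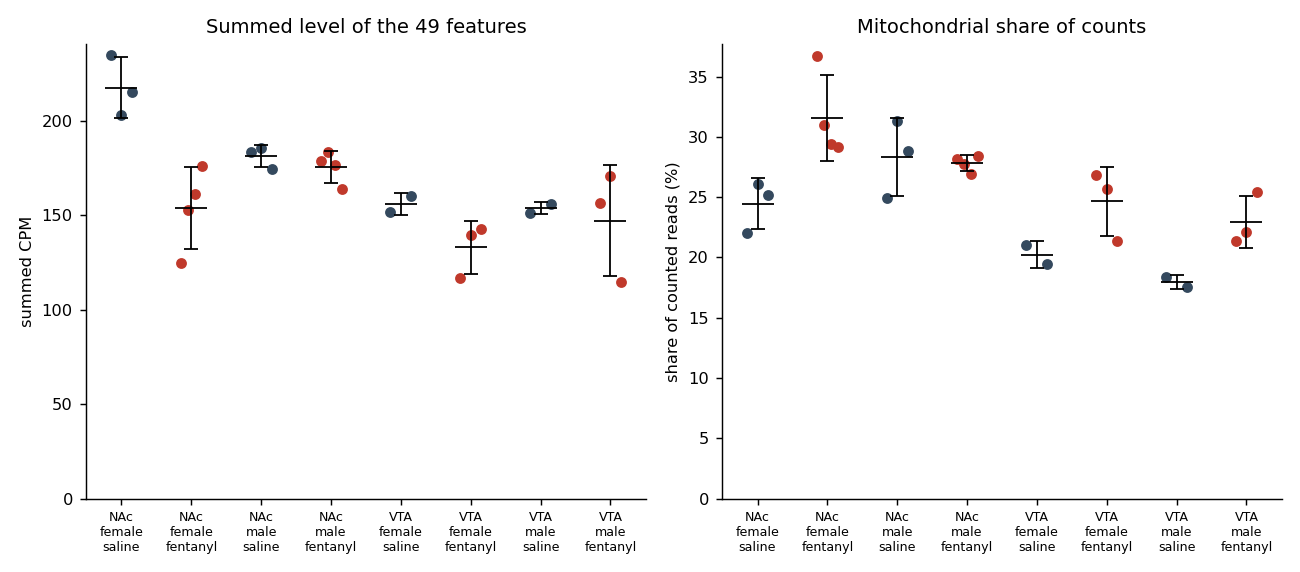
Summed CPM of the 49 features (left) and mitochondrial share of counts in % (right) in each library, by region, sex and treatment; points are libraries, bars the mean and SD. The 3 saline female NAc libraries lie at 202.9 to 234.6 CPM, above the other NAc libraries.

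VTA was next set against NAc within the 10 rats that gave both. This comparison shares 10 of the 14 NAc libraries whose fentanyl values led to the choice of the set, so it is not independent of that choice. Here 7 features were lower and 1 was higher in the VTA, of 27 tested. This was a smaller share than among all genes, 29.6% against 62.3%. Higher calls made up 31.7% and lower calls 30.6% of all 14795 genes. The 27 features had 120 to 4484 counts over all libraries, and the genes were not matched to them by level. The part of low counts in the smaller share was not tested. Of H3-length features 4 of 10 fell, of H4-length 2 of 7 and of H2A-length 1 of 4, and neither of the 2 H2B-length features passed. The median log2 difference over the 27 was -0.34, beside 0.02 over all genes. On plain library totals, without TMM scaling, the median was -0.20 beside 0.18 over all genes, with 5 features lower and 2 higher. Of the 8 calls 6 were shared, the features at 43791657 and 43776050 lost theirs, and the 639-nt feature at 43639749 was called higher. This scaling was added after the values were seen.

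In the highest feature, ENSRNOG00000051891, the level of the NAc was above that of the VTA in 10 of 10 rats. Fentanyl rats had 27.3 to 53.9 CPM in these 6 NAc libraries and 23.3 to 39.5 CPM in the VTA. Saline rats had 44.4 to 62.5 CPM in the NAc and 29.9 to 38.1 CPM in the VTA. The log2 difference was -0.55 ± 0.08 (SE), with an edgeR adjusted p of 2.36e-05. ENSRNOG00000058444, also of H4 length, was lower in the VTA in 10 of 10 rats, by -0.80 ± 0.14 (SE) on the log2 scale and with an edgeR adjusted p of 7.57e-05.

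Outside the H4 length, the H2A-length feature at 93376277 on chromosome 7 was lower in the VTA in 10 of 10 rats, with a log2 difference of -0.74 ± 0.16 (SE) and an edgeR adjusted p of 0.000524. It lies inside a longer deposited gene on the opposite strand. The H3-length features at 43807130 and 43791657 fell by 0.66 ± 0.16 and 0.51 ± 0.15 (SE) on the log2 scale, in 9 and 7 of 10 rats, with edgeR adjusted p of 0.00152 and 0.00706. The H3-length feature at 198417619 on chromosome 2 was lower in 10 of 10 rats, with a log2 difference of -0.78 ± 0.26 (SE) and an edgeR adjusted p of 0.0151. That call was lost without saline female 1. The H3-length feature at 43776050 was lower in 9 of 10 rats, at -0.80 ± 0.29 (SE) and an edgeR adjusted p of 0.0275, and its call was lost without fentanyl male 2 or 3, saline male 1 or 3, or saline female 1.

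The feature that was higher was ENSRNOG00000047459, a 660-nt feature without a histone length (chromosome 17, 43734461 to 43735120, plus strand). It had 1.42 to 8.20 CPM in the NAc and 3.16 to 13.3 CPM in the VTA of the same 10 rats. The VTA was higher in 10 of 10 rats, by 0.81 ± 0.17 (SE) on the log2 scale, with an edgeR adjusted p of 0.000494. The H4-length feature at 170763605 on chromosome 4 did not pass, with a log2 difference of 0.11 ± 0.14 (SE).

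As a sum of TMM-scaled CPM, the 49 features were lower in the VTA in 10 of 10 rats, with a VTA to NAc ratio of 0.647 to 0.936 and a median of 0.858. This direction depends on the scaling: over plain library totals the ratio was 0.624 to 1.15, with a median of 1.00 and 5 of 10 rats below 1. Over plain totals without mitochondrial features it was 0.611 to 0.999, with a median of 0.887. The sum leans on 1 feature, since without ENSRNOG00000051891 the median TMM-scaled ratio was 0.958, with a range of 0.654 to 0.970, and 1.07 over plain totals. H3-length features had a median TMM-scaled ratio of 0.732 and were lower in 10 of 10 rats, as they were over plain totals (median 0.847). H4-length features had a median ratio of 0.776 and were lower in 9 of 10, against 0.919 and 7 of 10 over plain totals. For H2A-length features the values were 0.746 and 10 of 10, against 0.873 and 8 of 10. H2B-length features were lower in 5 of 10 rats on both scales, with medians of 0.937 and 1.10. Features without a histone length were lower in 3 of 10 rats on both, with a median of 1.21 on the TMM scale. In bulk tissue, fewer cells of a type and less RNA per cell cannot be told apart, and punches of the 2 regions differ in size and cell makeup.

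**Figure D3:**
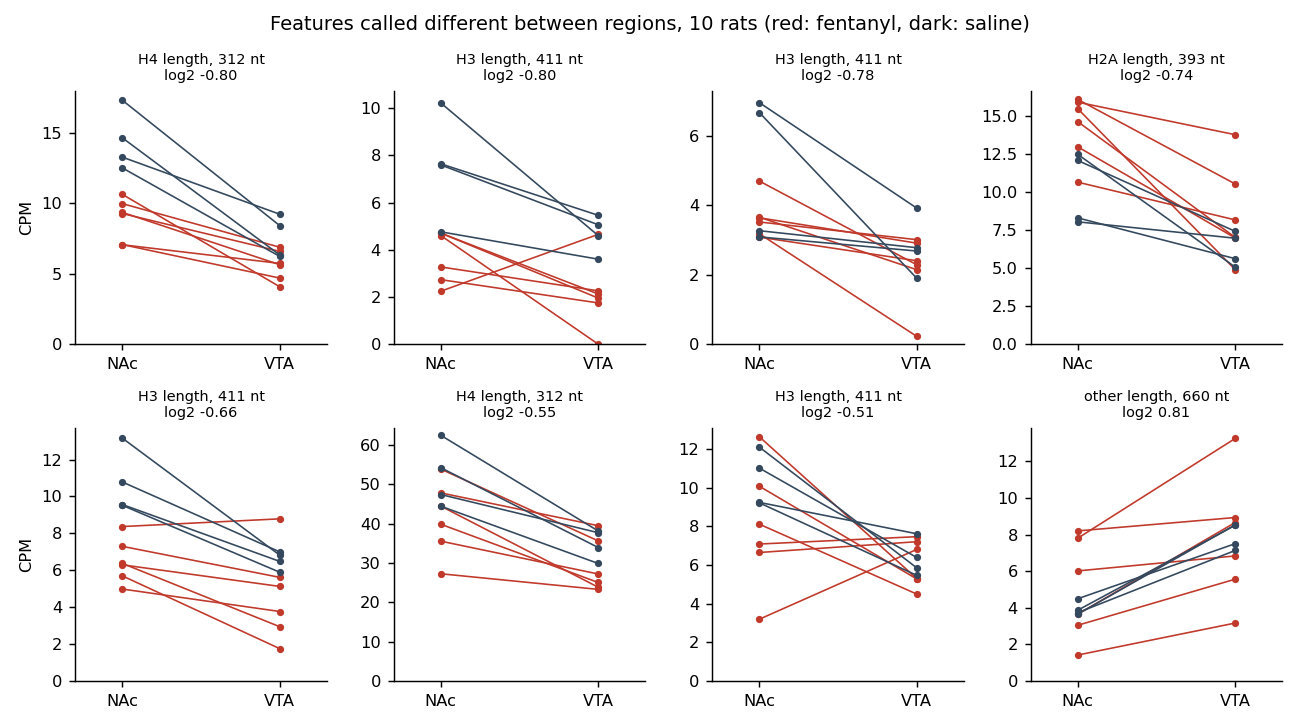
CPM in the NAc and the VTA of the 8 features that passed the test between regions, each line 1 of 10 rats (red fentanyl, dark saline), with the log2 difference from the fit. In 7 panels the level falls towards the VTA, and the 660-nt feature rises in 10 of 10 rats.

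The sexes were compared next, averaged over treatments. In the NAc 0 of 20 features passed edgeR's test and 0.0906% of all genes did, with 4 of the 20 at an unadjusted p under 0.05, beside 5.31% of all genes. In the VTA 0 of 26 passed and 0.0764% of all genes did, with 0 at an unadjusted p under 0.05, beside 3.3% of all genes. DESeq2 called 0 features in both, and 15 of all genes in the NAc and 12 in the VTA.

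The NAc fentanyl values, which led to the choice of these features, are given as a description. In females 8 of the 20 features that passed the filter were lower with fentanyl and 1 was higher at an edgeR adjusted p under 0.05, beside 13.5% of all 13248 genes called, 5.45% lower and 8.05% higher. All 6 H4-length and all 8 H3-length features had negative log2 fold changes in females, with medians of -1.32 and -0.73. The 3 H2A-length features were positive, with a median of 0.60. In males 0 of 20 passed and 0.0% of all genes did. DESeq2 called 0 of the features and 6 of all genes. At an unadjusted p under 0.05 in edgeR's test there were 4 of the 20, beside 6.42% of all genes. In the mean of the sexes 7 were lower and 0 higher, beside 7.51% of all genes called, 2.99% lower and 4.52% higher. These counts rest on single saline libraries: without saline female 1 or 2 only 3 features were called in females, and without saline male 1, saline male 4 or saline female 1 only 2 in the mean. With the replicate number as a block, all 7 calls of the mean were lost, and 1 other feature, the H4-length feature at 43821225, was called lower. Of the 9 calls in females the block left 5. CPM of the treatments did not overlap for 9 of the 20 features in NAc females, beside 25.2% of all genes, and for 4 of 20 in NAc males, beside 8.25% of all genes. The mean shares its saline libraries with the contrast of each sex.

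The H4-length feature at 170763605 on chromosome 4 had 8.49, 8.66, 8.58 and 12.6 CPM in NAc fentanyl females and 22.4, 16.4 and 22.2 CPM in saline females. Fentanyl males had 10.1, 11.6, 12.0 and 11.1 CPM and saline males 13.2, 9.22 and 11.8 CPM. The 3 saline females thus stood above all 11 other NAc libraries, and fentanyl females lay near both male groups. The log2 fold change in females was -1.05 ± 0.19 (SE).

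The H4-length feature at 43673294 had 3.19, 2.28, 1.38 and 4.11 CPM in NAc fentanyl females and 9.82, 7.19 and 8.27 CPM in saline females. Males had 2.25, 3.78, 4.45 and 2.58 CPM with fentanyl and 2.81, 2.97 and 4.02 CPM with saline. Again only the saline females of the NAc stood apart, and the log2 fold change was -1.59 ± 0.32 (SE) in females and -0.01 ± 0.36 (SE) in males. The H4-length feature at 43821225 had 0.354, 0.684, 1.66 and 2.83 CPM in fentanyl females, below the 4.91, 8.31 and 4.72 CPM of saline females. Its log2 fold change in females was -2.02 ± 0.51 (SE).

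In ENSRNOG00000058444 the treatments were apart in both sexes. It had 10.6, 9.34, 9.96 and 7.19 CPM in NAc fentanyl females and 17.3, 13.3 and 14.2 CPM in saline females. Males had 9.26, 7.05, 7.06 and 4.91 CPM with fentanyl and 14.6, 12.5 and 11.8 CPM with saline. The log2 fold change was -0.66 ± 0.21 (SE) in females and -0.88 ± 0.23 (SE) in males. The H3-length feature at 43776050 was alike in this, with 4.60, 2.73, 4.70 and 4.62 CPM in fentanyl females below 10.2, 7.64 and 6.89 CPM in saline females. In males it had 2.25, 3.27, 4.71 and 3.88 CPM with fentanyl and 7.59, 4.76 and 7.79 CPM with saline.

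The H2A-length feature at 93376277 went the other way in females. It had 15.9, 13.0, 15.5 and 13.9 CPM in NAc fentanyl females and 8.05, 8.31 and 10.2 CPM in saline females, without overlap. Males overlapped, with 10.7 to 16.1 CPM with fentanyl and 12.1 to 16.1 CPM with saline. The log2 fold change in females was 0.73 ± 0.19 (SE). The highest feature, ENSRNOG00000051891, had 27.3, 35.5, 39.8 and 50.1 CPM in fentanyl females, overlapping the 54.2, 47.4 and 63.4 CPM of saline females.

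Summed over all 49 features, NAc levels were 154 ± 21.7 CPM (SD, n = 4) in fentanyl females and 218 ± 16.0 CPM (SD, n = 3) in saline females. Males had 176 ± 8.38 CPM (SD, n = 4) with fentanyl and 181 ± 5.80 CPM (SD, n = 3) with saline. With mitochondrial features left out of the library total and no TMM scaling, the set made up 157 to 236 CPM in fentanyl females and 274 to 321 CPM in saline females, so the female groups did not overlap on this scale either. The fentanyl female with the highest mitochondrial share, 36.7%, had the lowest sum, 124.6 CPM. Without that library the NAc female test called the same numbers, 8 lower and 1 higher. The mitochondrial share itself did not overlap between the NAc female groups, at 29.2% to 36.7% with fentanyl and 22.1% to 26.1% with saline. Its part in the gap therefore cannot be told apart from that of fentanyl.

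Both comparisons here hold the NAc fentanyl contrast that led to the choice of the set, so their counts and shares are a description. The difference between the female and the male fentanyl effect in the NAc passed edgeR's test for 0 of 20 features and for 0.77% of all genes. DESeq2 called 0 of the features and 260 of all genes. At an unadjusted p under 0.05 in edgeR's test there were 8 features, or 40.0% beside 14.1% of all genes. By edgeR, the H4-length feature at 170763605 had the lowest adjusted p, 0.0774. Set against each other within rats, the fentanyl effects of the 2 regions differed at edgeR's threshold for 0 of 27 features and 0.0% of all genes. DESeq2 called 0 of the features and 1 of all genes. At an unadjusted p under 0.05 in edgeR's test there was 1 feature, or 3.7% beside 5.68% of all genes. An effect in females but not in males, or in one region but not the other, was therefore not shown for any single feature.

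Other features serve as a background for the NAc female contrast. Among other single-exon features of 300 to 700 nt, 121 were tested, of which 27 were higher and 9 lower, with a median log2 fold change of 0.20. Among the other features of the chromosome 17 window 7 were tested and 0 passed edgeR's test, with a median of 0.32. The 2650 tested genes with the most nearby features went the other way, with 238 lower, 119 higher and a median of -0.11. Of these genes, which include features of the set, 61.5% were negative. Features of the set in the chromosome 17 window had a median of 48 neighbours, beside 17 over all genes with a count. The part of neighbour number in the fall of the set was not tested.

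**Figure D4:**
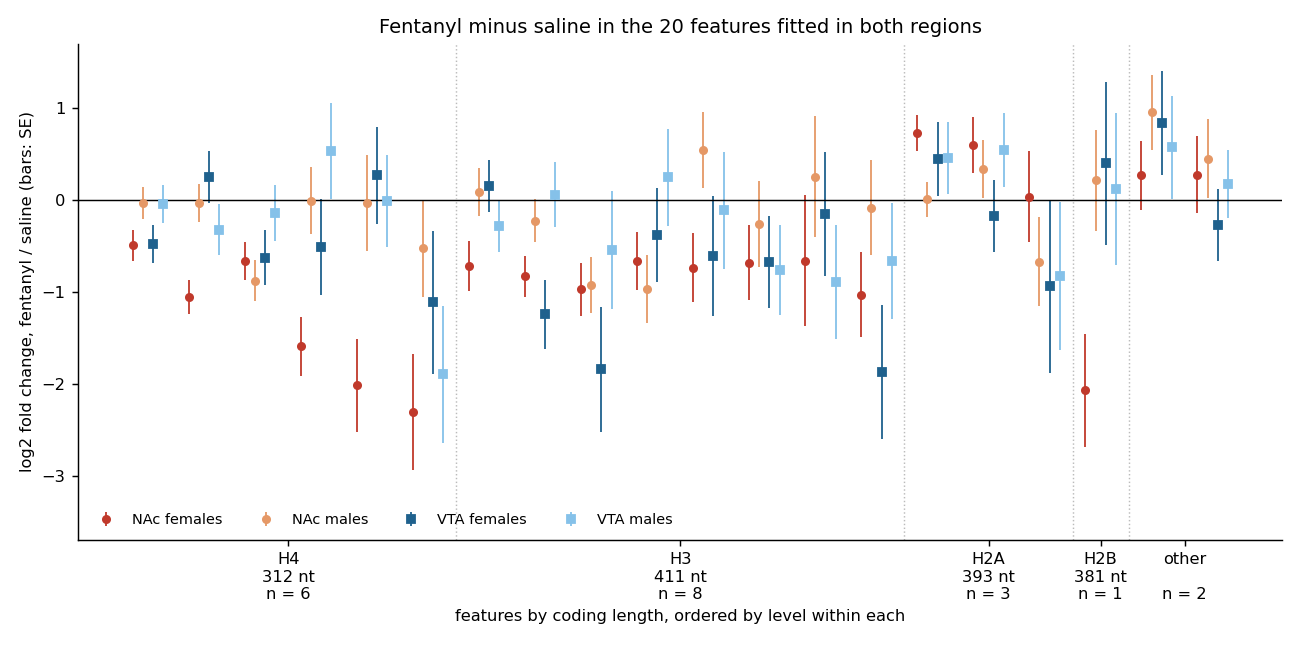
Log2 fold change with SE, fentanyl against saline, of the 20 features fitted in both regions, grouped by coding length, in NAc and VTA females and males. H4-length and H3-length features lie below 0 in NAc females, where the choice of the set was made, and H2A-length features lie above 0.

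Because 10 rats gave both regions, the levels in the 2 regions of a rat could be set against each other. Over the 27 features, Pearson's r between log2(CPM + 0.5) in the NAc and the VTA was positive in 22, with a median of 0.26. None passed after Benjamini-Hochberg adjustment over the 27, and 4 had an unadjusted permutation p under 0.05. The correlations were not computed for other genes, so these counts do not show whether the features differ from genes at large. For the 639-nt feature at 43639749, r was 0.82 (permutation p = 0.00386, adjusted 0.0635, n = 10 rats) and Spearman's rho was 0.66 (permutation p = 0.0442, adjusted 0.298). Without the 2 rats farthest from the NAc median r was 0.56. Fentanyl female 1 had the lowest level in both regions, 4.96 and 6.56 CPM, and fentanyl female 2 the highest in both, 25.3 and 35.2 CPM.

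For ENSRNOG00000051891 r was 0.77 (permutation p = 0.00516, adjusted 0.0635, n = 10 rats) and rho was 0.77 (permutation p = 0.0124, adjusted 0.167). Without the 2 farthest rats r was 0.66. For ENSRNOG00000047459 r was 0.83 and for the H3-length feature at 43807130 it was 0.71. Rats of both treatments and sexes are pooled in these values.

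**Figure D5:**
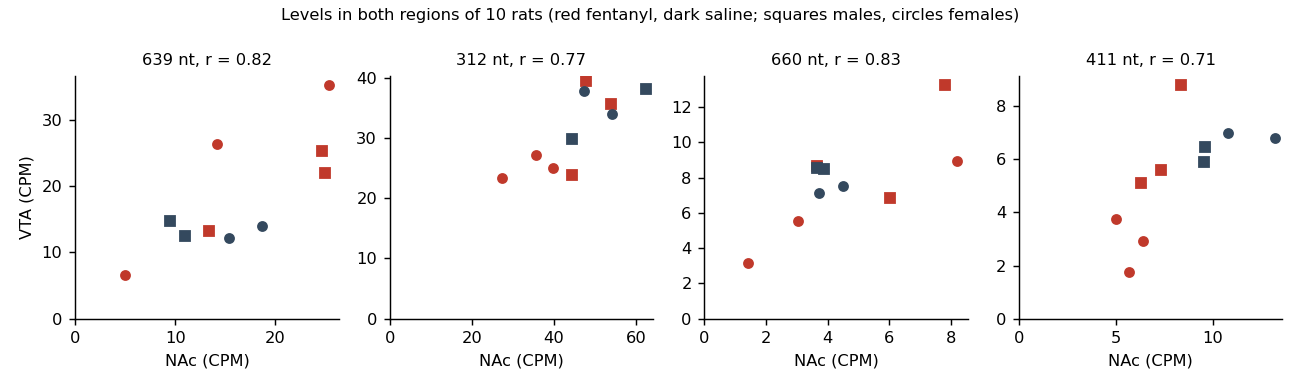
CPM in the NAc (x axis) and the VTA (y axis) of the same 10 rats for the 4 features with the lowest unadjusted permutation p; r is of log2(CPM + 0.5). Red points are fentanyl and dark points saline rats, squares males and circles females.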

How the data were processed

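The deposited tables hold raw counts per feature, 1 table per library, which the authors left without normalization. The submitters' processing notes name DESeq2, featureCounts, Subread 1.5.2, STAR 2.5.2b and Trimmomatic 0.36, with no role given. Those notes and the labels give no build, annotation release or strand setting, and do not say how multi-mapped reads were handled: these are not given in the sources used. None of the 32552 IDs matched a symbol, so gene lists, cell type markers and reference sequences were not used here.

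The features and comparisons were chosen with earlier results of these data known. Features named in the text were drawn from those called in any comparison, the 2 highest of each length class, the head-to-head pairs and those at the limits of the rule. Not all of these are named. The feature at 44760056 was chosen after its values were seen. CPM were scaled by TMM over all 24 libraries. Tests were edgeR 4.0.16 (R 4.3.3) quasi-likelihood F tests, two-sided, after filterByExpr, with Benjamini-Hochberg adjustment over all genes of a fit and a threshold of 0.05. Each region was fitted with its 4 groups of sex and treatment; regions were compared with rat as a block, which the animal codes give. The fits were tested on simulated data. Standard errors come from the F statistic. Correlations used 100000 resamples. P-values measure the spread among rats of one study.

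Residuals gave no sign that replicate numbers pair rats within a region. Those of same-numbered libraries correlated with a mean of -0.0146 in the NAc (12 pairs, -0.130 to 0.185) and 0.00144 in the VTA (10 pairs, -0.288 to 0.206). The residuals were centred within groups of 2 to 4 libraries, so these pairs and those of unlike numbers are not independent, and pairing is not excluded. Alternatives were DESeq2 1.42.0, upper quartile scaling, no TMM scaling (added after seeing the data), no mitochondrial features, no low-count filter, the replicate number as a block, fits of the 2 groups alone, the chromosome 17 features alone and leaving out each library or rat.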

Additional observations from a re-analysis of the deposited data

Results flagged for a closer look

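In 5 cases 1 of 4 libraries of a group lay far from the other 3. Among 54 groups of 4 so examined, chance alone flags about 1 in 20. In NAc fentanyl females, replicate 8 had 12.6 CPM of the H4-length feature at 170763605 on chromosome 4, against 8.49 to 8.66 CPM in the others. In the same group, replicate 2 had 3.19 CPM of the H3-length feature at 43791657, against 6.64 to 7.08 CPM. That replicate also had 2.73 CPM of the H3-length feature at 43776050, against 4.60 to 4.70 CPM. In NAc fentanyl males, replicate 3 had 2.88 CPM of the H4-length feature at 101138549, against 0.842 to 1.03 CPM. Replicate 7 of that group had 6.98 CPM of the H3-length feature at 198417619 on chromosome 2, against 3.09 to 3.66 CPM.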

How the results depend on the processing

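The number of features called stayed within 1.5 times of the reported one, in each of the 11 comparisons, under DESeq2, upper quartile scaling and a fit without mitochondrial features. Without the low-count filter, 2 features were called for fentanyl in the VTA over both sexes (1 higher, 1 lower), in place of 0. In VTA females 1 was called, and 1 for the female minus male effect in the NAc, each in place of 0. Over all genes, 499, 418 and 388 were then called in these comparisons, in place of 0, 0 and 102. The cause was not tested. With the replicate number as a block, all 7 calls in the NAc over both sexes were lost and 1 other feature, at 43821225, was called lower; in NAc females 6 were called, 5 of them among the 9 reported. Without TMM scaling, an alternative chosen after seeing the data, 1 feature rather than 0 was called for the female minus male effect in the NAc, 10 rather than 9 in NAc females (8 shared) and 7 rather than 8 between regions (6 shared). The median of all genes was then -0.21 in NAc females and 0.18 between regions, and the summed level was lower in the VTA in 5 rather than 10 of 10 rats; the cause was not tested. Leaving out 1 library or rat at a time gave 6 to 10 calls between regions, 3 to 10 in NAc females, 2 to 7 in the NAc over both sexes, 0 to 1 for the female minus male effect in the NAc, and 0 in the other 7 comparisons. The 3 in NAc females came without saline female 1 or without saline female 2. The 2 in the NAc over both sexes came without saline male 1, saline male 4 or saline female 1. Of the 8 calls between regions, 5 held under each of 15 alternatives; the feature at 43791657 lost its call without TMM scaling, and those at 198417619 and 43776050 lost theirs without single rats, the latter also without TMM scaling, with adjusted p up to 0.0579, 0.0600 and 0.0923. No fold change of a named feature that was called turned its direction under any alternative run. Restricting the set to features named as histones could not be run, since no feature has a name. Depth limits the set: 22 of 49 features had too few counts for any fit, and groups of 2 to 4 rats leave wide errors.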
